A study of Rattus norvegicus with 16 samples.

Results

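Transcripts of 3 rat liver P450 genes of the families that hold the phenobarbital-type P450s were followed here: Cyp2b2, Cyp2b3 and Cyp2c6v1. The genes were chosen with earlier results of these data known. Their probes were found by the RefSeq accession in the scan files, and none found this way was left out. Probes of these genes under other identifiers were not searched. The members were 3 of the 15154 genes with a symbol, and 5 of the 30367 probes, on the array. Cyp2b2 (NM_001198676) had the probes A_64_P006590 and A_44_P311324, Cyp2b3 (NM_173294) the probes A_44_P205599 and A_64_P018626, and Cyp2c6v1 (NM_001013904) the probe A_64_P033170. All 5 were well above background in both channels on 16 of 16 arrays, none was saturated, and all 5 entered the fit of 14512 probes.

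Livers came from male Sprague-Dawley pups aged 21 days whose dams had been dosed in corn oil from gestation day 0 to postnatal day 20, and which stayed with their own dams. C dams received corn oil alone. Dams of the 0.5M and M groups received organochlorine pesticides, polychlorinated biphenyls and methyl mercury together, at 0.5 and 1 mg/kg/day. AhR dams received non-ortho polychlorinated biphenyls, dibenzodioxins and dibenzofurans, which activate the aryl hydrocarbon receptor, at a toxic equivalent of 1.8 ng/kg/day. RNA of 2 pups was pooled at random on each array, giving 4 arrays and 8 pups per group, and it was set in Cy5 against a Cy3 reference RNA of 14 rat cell lines. Values are log2 ratios of liver over this reference, so 1 unit is a doubling. Litters are not given in the sources used here, so p-values measure the spread between these arrays only. These are bulk samples, in which fewer cells of a type and less RNA per cell cannot be told apart.

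Cytochromes P450 of the Cyp2b and Cyp2c families are heme enzymes of the hepatocyte endoplasmic reticulum that oxidise steroids, drugs and pollutants. Their classic inducer is phenobarbital, which releases the nuclear receptor CAR (Nr1i3) from a cytoplasmic complex. In the nucleus CAR pairs with RXR on an enhancer of the Cyp2b genes that lies further upstream than the promoter windows shown here. Polychlorinated biphenyls with ortho chlorines and several organochlorine pesticides are known inducers of the phenobarbital type, whereas dioxin-like compounds act through the aryl hydrocarbon receptor on Cyp1 genes. Cyp2b2 is a main phenobarbital-inducible P450 of rat liver, Cyp2b3 is a relative known for not responding to phenobarbital, and Cyp2c6 responds more modestly.

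Cyp2b2 and Cyp2b3 lie side by side on chromosome 1, where Cyp2b3 is the next annotated protein-coding gene after Cyp2b2, and Cyp2c7 is likewise the next after Cyp2c6v1. The proximal promoters of this adjacent pair are shown because their transcripts moved differently in the results below. Both are from RefSeq (GRCr8, plus strand) and end before the first annotated base of the gene. The Cyp2b2 window is chr1:90722031-90722242 (212 bases) and the Cyp2b3 window is chr1:90780242-90780467 (226 bases). Capitals mark the 3 runs of at least 8 aligned letters that are identical in both.
Cyp2b2: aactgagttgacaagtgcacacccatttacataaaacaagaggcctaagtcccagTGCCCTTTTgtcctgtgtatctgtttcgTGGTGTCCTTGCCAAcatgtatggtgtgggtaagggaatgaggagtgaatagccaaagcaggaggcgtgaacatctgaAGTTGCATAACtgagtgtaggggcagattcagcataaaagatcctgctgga
Cyp2b3: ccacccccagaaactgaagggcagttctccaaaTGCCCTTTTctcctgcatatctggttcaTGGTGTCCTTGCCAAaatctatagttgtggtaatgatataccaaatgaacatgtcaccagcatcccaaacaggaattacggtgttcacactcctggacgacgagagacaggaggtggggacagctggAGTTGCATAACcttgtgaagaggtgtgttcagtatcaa
The windows matched at 130 of 175 aligned bases (74.3%). Bases set against a gap were not counted, so this share leaves out part of both windows (212 and 226 bases). The Cyp2b2 window matched that of Cyp2b1, its near-identical relative, at 204 of 212 (96.2%). The nuclear receptor half-site AGGTCA was searched in the first 250 bases of each promoter sequence. For Cyp2b2 and Cyp2b3 these run past the windows shown, into the annotated gene. The half-site was found on neither strand for Cyp2b1, Cyp2b2 or Cyp2b3, and once each for Cyp2b12, Cyp2b14, Cyp2b15 and Cyp2b21. Among 33469 rat promoters in windows of that length, 4707 (14.1%) held it. No promoter of Cyp2c6v1 was matched in the table. The RefSeq accessions of Cyp2b1 matched no probe, and how far Cyp2b1 transcripts add to the Cyp2b2 signals was not tested.

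Cyp2b2 was the member with the widest range over the 16 arrays. On its brighter probe, A_64_P006590, the C arrays read -0.69, -0.35, -0.60 and -0.62 for replicates 1 to 4. The AhR arrays read -0.57, -0.07, -0.23 and -0.35. C and AhR livers thus had similar Cyp2b2 signals, with the AhR range reaching slightly higher. The 0.5M arrays read 1.62, 1.35, 1.16 and 1.08, and the M arrays 3.26, 1.82, 2.65 and 2.63. Every 0.5M array lay above every C and AhR array, and every M array above every 0.5M array.

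The other Cyp2b2 probe, A_44_P311324, gave the same order of group means with smaller steps. It read -0.62, -0.43, -0.56 and -0.56 in C and -0.66, -0.70, -0.15 and -0.60 in AhR. In 0.5M it read 0.87, 0.64, 0.61 and 0.54, and in M 1.89, 0.54, 1.86 and 1.62. Replicate 2 of M lay at the level of the lowest 0.5M array and the other 3 M arrays above all of 0.5M. The pairs of spots of a probe differed by a median of 0.148 (at most 0.325) for A_64_P006590 and 0.124 (at most 0.497) for A_44_P311324 over the 16 arrays.

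Cyp2c6v1, which encodes a constitutive liver P450 that inducers raise further, read -0.99, -1.23, -0.59 and -1.11 in C and -1.34, -0.82, -0.94 and -1.27 in AhR. In 0.5M it read 0.25, 0.03, 0.20 and -0.42, and in M 1.14, 0.74, 1.00 and 0.65. C and AhR overlapped, all 0.5M arrays lay above both, and all M arrays lay above all 0.5M arrays.

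Cyp2b3 showed no separation of the groups. Its brighter probe, A_44_P205599, read -0.37, -0.74, -0.54 and -0.68 in C, -0.46, -0.70, -0.49 and -1.14 in AhR, -0.76, -0.54, -0.68 and -0.58 in 0.5M, and -0.22, -0.47, -0.89 and -0.87 in M. The probe A_64_P018626 read -0.71, -0.95, -0.61 and -0.57 in C, -0.93, -0.99, -0.66 and -1.33 in AhR, -0.99, -0.85, -0.74 and -0.84 in 0.5M, and -0.68, -0.77, -1.16 and -1.12 in M. All 4 groups overlapped on both probes.

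**Figure D1:**
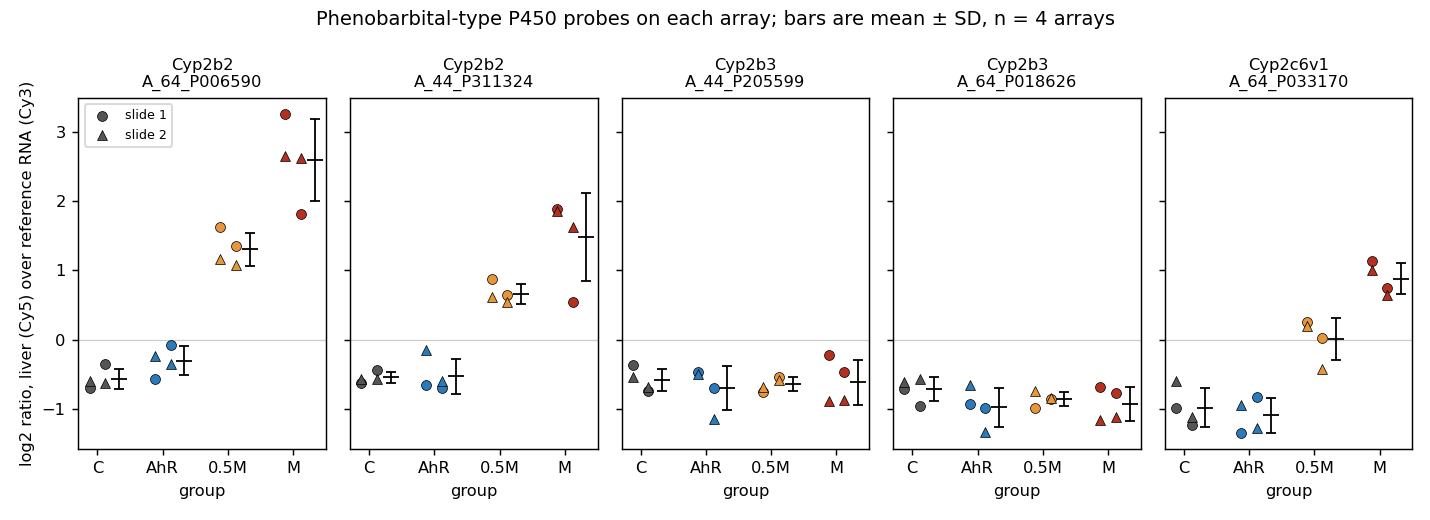
Log2 ratio of liver (Cy5) over reference RNA (Cy3) of the 5 probes on each of 16 arrays, by group, with circles for slide 1, triangles for slide 2 and bars for the mean ± SD of 4 arrays. On the Cyp2b2 and Cyp2c6v1 probes the group means are lowest in C and AhR, intermediate in 0.5M and highest in M (2.59, 1.48 and 0.88), while the Cyp2b3 groups overlap; M 2 lies at the lowest 0.5M array on A_44_P311324.

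M livers were compared with C livers to see the effect of the full dose. Of the 5 probes, 3 rose and none fell, where 0.345% of all 14512 probes passed in either direction and 0.269% rose (limma, Benjamini-Hochberg adjusted p under 0.05). Cyp2b2 rose by 3.16 ± 0.22 (SE, n = 4 arrays per group) on A_64_P006590, an 8.91-fold difference (adjusted p = 1.24e-06, limma, 4 of 4 M arrays above all C arrays). On A_44_P311324 it rose by 2.02 ± 0.22, or 4.06-fold (adjusted p = 0.000148, limma, 4 of 4). Cyp2c6v1, read by 1 probe with 1 spot, rose by 1.86 ± 0.17, or 3.63-fold (adjusted p = 3.78e-05, limma, 4 of 4). From the Cy5 signal alone the differences were 3.18 and 2.08 for Cyp2b2 and 1.61 for Cyp2c6v1. By p, these probes ranked 2, 9 and 5 of 14512, and 2.05% of all probes had a higher range in M without overlap. The Cyp2b3 probes differed by -0.03 ± 0.14 (95% interval -0.34 to 0.27, adjusted p = 0.962, limma) and -0.22 ± 0.14 (-0.52 to 0.08, adjusted p = 0.652, limma). Their slides went opposite ways, with 0.20 and 0.11 on slide 1 and -0.27 and -0.55 on slide 2. On slide 1 alone the differences were 3.06 and 1.74 for Cyp2b2, neither of which passed (adjusted p = 0.0637 and 0.437, limma), and 2.05 for Cyp2c6v1. On slide 2 alone they were 3.25, 2.30 and 1.67, and Cyp2c6v1 did not pass (adjusted p = 0.0902, limma). In the fit of both slides the 3 calls held without any single array, with lowest differences of 2.93, 1.84 and 1.76. All 3 were lost with median centring in place of loess, where the differences were 2.84, 1.73 and 1.52 (adjusted p = 0.130, 0.997 and 0.997, limma).

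The size of the rise differed between probes. The difference between A_64_P006590 and A_44_P311324 within an array was 1.14 larger in M than in C, although both are annotated to Cyp2b2 (exact permutation test over 70 splits, two-sided, p = 0.0286, adjusted p = 0.0357 over 10 pairs of probes). This p is the smallest that 4 arrays against 4 can give, and 8 of the 10 pairs reached it. The splits exchange arrays across slides; kept within slides there are 36, with a smallest p of 0.0556, so that no pair could pass. A_64_P006590 rose by 1.30 more than the Cyp2c6v1 probe (exact p = 0.0286), but without any single C array p was 0.0571, with values of 1.16 to 1.45. It rose by 3.19 and 3.38 more than the Cyp2b3 probes (exact p = 0.0286 for each), and Cyp2c6v1 rose by 1.89 and 2.08 more than they did (exact p = 0.0286 for each); these 4 values kept that p without any single array. A_44_P311324 rose by 2.05 and 2.24 more than the Cyp2b3 probes (exact p = 0.0286), again with p = 0.0571 without any single C array. A_44_P311324 and Cyp2c6v1 differed by 0.16 (exact p = 0.6286), and the 2 Cyp2b3 probes by 0.19 (exact p = 0.1714; 0.26 and p = 0.0286 without C 1).

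The comparison of 0.5M with C concerns the lower dose. Only Cyp2b2 on A_64_P006590 passed among the 5 probes, rising by 1.87 ± 0.22, or 3.65-fold (adjusted p = 0.00194, limma, 4 of 4 arrays above C), where 0.0138% of all probes passed. It passed without any single array, at 1.76 to 1.93. A_44_P311324 differed by 1.21 ± 0.22 (95% interval 0.75 to 1.67, adjusted p = 0.169, limma) and Cyp2c6v1 by 0.99 ± 0.17 (0.62 to 1.36, adjusted p = 0.166, limma), and all 4 arrays lay above all C arrays on both. A higher range without overlap was found for 1.39% of all probes in this comparison. Cyp2c6v1 passed without C 3 (1.14, adjusted p = 0.0359, limma) or without 0.5M 4 (1.15, adjusted p = 0.0248, limma). The Cyp2b3 probes differed by -0.06 ± 0.14 and -0.14 ± 0.14 (adjusted p = 0.956 and 0.871, limma). The Cyp2b2 call was lost with median centring (1.80, adjusted p = 1.00, limma) and on slide 1 alone (2.0, adjusted p = 0.999, limma).

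The comparison of AhR with C asks whether the dioxin-like agonists moved these genes. None of the 5 probes passed, where 0.00689% of all probes did and 550 had an unadjusted p under 0.05 by limma. Cyp2b2 on A_64_P006590 differed by 0.26 ± 0.22 (95% interval -0.20 to 0.72), and 3 of 4 AhR arrays lay above all C arrays. A_44_P311324 differed by 0.01 ± 0.22 (-0.45 to 0.48) and Cyp2c6v1 by -0.11 ± 0.17 (-0.48 to 0.26), and both changed sign on slide 1 alone, to -0.15 and 0.03. The Cyp2b3 probes differed by -0.12 ± 0.14 (-0.42 to 0.19) and -0.27 ± 0.14 (-0.57 to 0.03). The adjusted p was 1.00 for all 5 by limma.

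**Figure D2:**
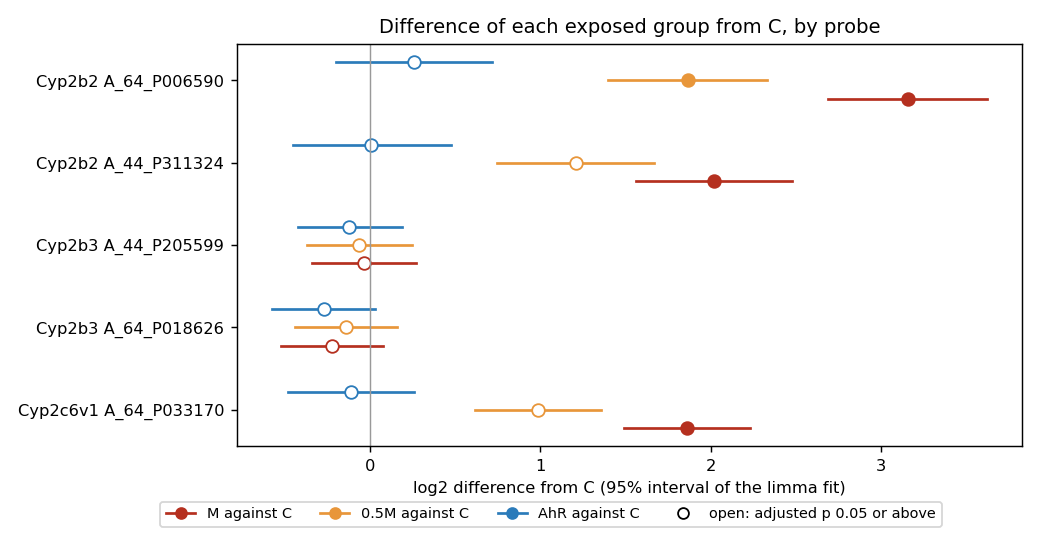
Log2 difference of M, 0.5M and AhR from C for the 5 probes, with the 95% interval of the limma fit; filled points passed at an adjusted p under 0.05. The M interval for Cyp2b2 on A_64_P006590 runs from 2.69 to 3.62 and lies above the 0.5M interval of 1.40 to 2.33, whereas all 3 intervals of each Cyp2b3 probe include 0.

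Between the doses, Cyp2b2 on A_64_P006590 was 1.29 ± 0.22 higher in M than in 0.5M (adjusted p = 0.0692, limma, 4 of 4 M arrays above all 0.5M arrays), A_44_P311324 was 0.81 ± 0.22 higher (adjusted p = 0.449, limma, 3 of 4) and Cyp2c6v1 0.86 ± 0.17 higher (adjusted p = 0.165, limma, 4 of 4). None passed the threshold, where 0.0276% of all probes did and 1.40% had a higher range in M without overlap. The Cyp2b3 probes differed by 0.03 ± 0.14 and -0.08 ± 0.14, both with signs that other processing turned. Without M 2, the lowest M array on both Cyp2b2 probes, both passed, at 1.59 (adjusted p = 0.000124, limma) and 1.12 (adjusted p = 0.00122, limma). This was the only 1 of 8 omissions that passed for either probe. The lowest differences over the omissions were 1.06 and 0.63 (adjusted p up to 0.293 and 0.758, limma).

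Skeletal muscle markers were high on M 2 and on 1 other array. The mean log2 ratio of the 5 measured of 12 listed muscle markers was 3.17 on M 2 and 3.40 on 0.5M 4, against -2.69 to -1.04 on the other arrays. The 6 stellate cell markers averaged 2.15 and 1.83 on the same arrays. Exocrine pancreas markers (4 measured of 12) averaged 1.78 on M 1 and 0.89 on AhR 2, and fat markers (4 of 8) 0.50 on C 2. The 7 hepatocyte markers were above background on all 16 arrays, with means of 0.10 to 1.06. The highest was on M 1, where 5 of the 7 were highest and where Cyp2b2 on A_64_P006590 was also highest. M 1 was also the dimmest array, with the fewest probes above background in Cy5 (7082). AhR 1 had the next fewest (8828) and the next highest hepatocyte mean (0.91). How far dim Cy5 signal raised these ratios was not tested. The 7 periportal hepatocyte markers averaged -1.21 to -0.81 on M arrays and -0.83 to -0.52 on C arrays, and the 6 measured pericentral markers 0.14 to 0.47 and 0.17 to 0.77. No list had a member past the threshold against C, where 0.345%, 0.0138% and 0.00689% of all probes passed for M, 0.5M and AhR. For lists this short, a count of 0 is near the background. Median differences in M against C ran from -0.25 for periportal markers to 1.46 for muscle markers. The part of such marker transcripts in the Cyp2b2 values of M 1 and M 2 was not tested. Without all 5 of these arrays, Cyp2b2 on A_64_P006590 was 3.28 higher in M than in C and 2.02 higher in 0.5M than in C, and the M to 0.5M difference passed at 1.26 (adjusted p = 0.0245, limma). M then rests on 2 arrays, both of slide 2.

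Against the AhR group, M livers were higher by 2.90 ± 0.22 for Cyp2b2 on A_64_P006590 (adjusted p = 8.74e-06, limma), by 2.01 ± 0.22 on A_44_P311324 (adjusted p = 0.000163, limma) and by 1.97 ± 0.17 for Cyp2c6v1 (adjusted p = 2.07e-05, limma). All 4 M arrays lay above all AhR arrays on each, where 0.276% of all probes passed in this comparison, 0.200% rose and 1.73% had a higher range without overlap. The first of these had the smallest p of all 14512 probes. All 3 calls were lost with median centring (2.65, 1.79 and 1.69, adjusted p = 0.342, 1.00 and 1.00, limma) and on slide 1 alone (2.86, 1.90 and 2.02, adjusted p = 0.131, 0.444 and 0.0524, limma). These comparisons share the M arrays with those against C. The Cyp2b3 probes differed by 0.08 ± 0.14 and 0.05 ± 0.14 (adjusted p = 0.898 and 0.948, limma), with signs that other processing turned.

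0.5M livers were higher than AhR livers by 1.61 ± 0.22 for Cyp2b2 on A_64_P006590 (adjusted p = 0.0244, limma) and by 1.11 ± 0.17 for Cyp2c6v1 (adjusted p = 0.0494, limma), where 0.0207% of all probes passed. A_44_P311324 was 1.20 ± 0.22 higher without passing (adjusted p = 0.139, limma), and the Cyp2b3 probes differed by 0.06 ± 0.14 and 0.12 ± 0.14. Arrays of the 2 groups did not overlap on the Cyp2b2 and Cyp2c6v1 probes, as for 1.87% of all probes in the higher direction. Both calls depended on single arrays. Leaving out any 1 of 7 of the 8 arrays (all but 0.5M 4) ended both, with differences of 1.49 to 1.67 for Cyp2b2 and 1.01 to 1.20 for Cyp2c6v1 (adjusted p up to 0.164 and 0.235, limma). Both were also lost with median centring (adjusted p = 1.00 for each, limma).

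Other targets of CAR were taken from a list of 30 genes, of which 25 were measured, each by its brightest probe. In M against C, 8 rose and none fell, where 0.269% of all probes rose and 0.0758% fell. Of the 25 differences 23 were above 0, with a median of 0.73 against 0 over all probes. Those that rose were Cyp2c7 (1.91 ± 0.20), a P450 and the chromosomal neighbour of Cyp2c6v1, Aldh1a1 (1.84 ± 0.28), a retinaldehyde dehydrogenase, Cyp3a23-3a1 (1.08 ± 0.17), a pregnane-inducible P450, the glucuronosyltransferases Ugt2b1 (1.19 ± 0.22) and Ugt1a6 (1.10 ± 0.14), and the glutathione transferases Gstm2 (0.99 ± 0.17), Gsta3 (0.92 ± 0.17) and Gsta4 (0.78 ± 0.13). The adjusted p of these 8 by limma ran from 0.000133 for Cyp2c7 to 0.0239 for Gsta3. None of the 25 passed in 0.5M against C (median 0.37, 19 above 0, 0.0138% of all probes) or in AhR against C (median 0.12, 18 above 0, 0.00689% of all probes). Cyp2c7 alone passed in M against 0.5M (1.60 ± 0.20, adjusted p = 0.00501, limma; 0.0276% of all probes). In M against AhR 7 rose (0.200% of all probes), and none passed in 0.5M against AhR (0.0207%). Several of these genes are also targets of other receptors, and the list was drawn up with earlier results of these data known.

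Of 20 listed genes of the receptor and its partners 17 were measured. None passed in any of the 6 comparisons, where 0.00689% to 0.345% of all probes passed, so that a count of 0 in 17 is near the background. The list had medians of -0.05, -0.09 and -0.01 for M, 0.5M and AhR against C. Nr1i3, the receptor CAR itself, differed from C by 0.22 ± 0.18 in M, -0.18 ± 0.18 in 0.5M and 0.36 ± 0.18 in AhR. Nr1i2, the pregnane X receptor, differed by -0.16 ± 0.10, -0.22 ± 0.10 and -0.06 ± 0.10.

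**Figure D3:**
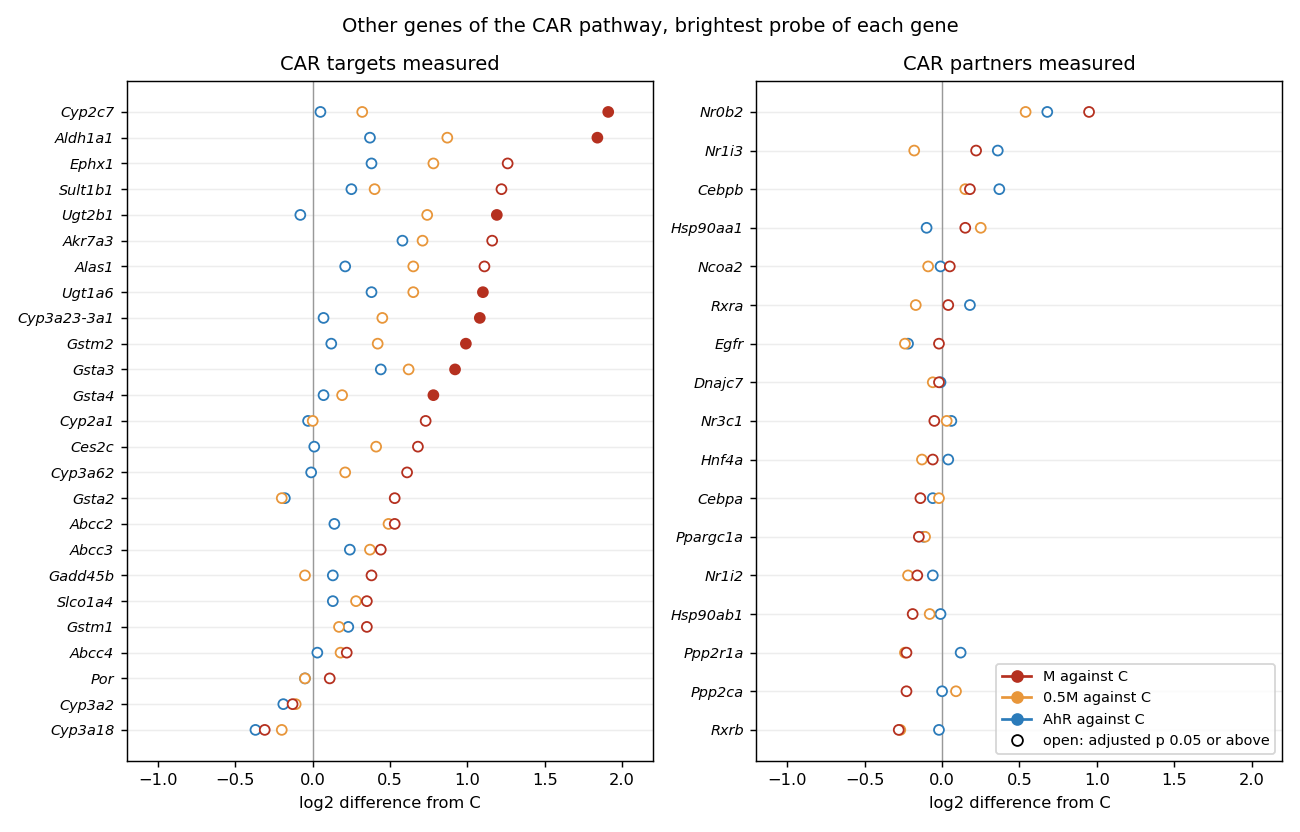
Log2 difference from C of 25 CAR targets (left) and 17 CAR partners (right), each by its brightest probe, in M, 0.5M and AhR; filled points passed at an adjusted p under 0.05 by limma. On the left 8 targets are filled in M and none in 0.5M or AhR, and on the right no point is filled.

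Within the Cyp2b and Cyp2c families, 9 further genes had 11 probes, of which 9 were tested. The 3 probes that rose in M against C were all of Cyp2c7, by 1.91, 1.86 and 2.79. They also rose in M against AhR, and 2 of them in M against 0.5M (1.60 and 1.54). Over all probes 0.269%, 0.200% and 0.0276% passed higher in these 3 comparisons. No probe of these genes fell in any of the 6 comparisons. Over all probes 0.0758% passed lower in M against C and in M against AhR, and 0% in the others. A count of 0 in 9 is thus near the background. Cyp2b21, another Cyp2b gene, differed by 0.44 ± 0.14 in M against C (adjusted p = 0.244, limma). Its probe was dim, being well above background in liver on only 5 of 16 arrays. Cyp2c23 differed by 0.27 ± 0.09 (adjusted p = 0.311, limma). The other tested genes also did not pass, at 0.27 for Cyp2c12, -0.19 for Cyp2c11, -0.25 for Cyp2c13 and -0.18 for Cyp2c22. Cyp2b12 and Cyp2b15 did not pass the filter on dim probes, being well above background in liver on 0 and 1 of 16 arrays.

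Among the 34 other named probes past the threshold in M against C, likeness to a member was measured as the root mean square difference of slide-centred log2 ratios over the 16 arrays, which share their groups and reference. Those nearest to Cyp2b2 on A_64_P006590 were Ceacam4, a cell adhesion family transcript (0.61), Cyp1a2, a P450 of the aryl hydrocarbon receptor pathway (0.67), a Cyp2c7 probe (0.71), Aldh1a1 (0.73) and another Cyp2c7 probe (0.75). Nearest to Cyp2c6v1 were Cyp1a2 (0.30), Aldh1a1 (0.40), Ugt2b1 (0.42) and Cyp2c7 on both A_43_P13939 and A_64_P000452 (0.43 each). Cyp1a2 differed from C by 1.76 in M, 0.85 in 0.5M and 0.21 in AhR, and Ceacam4 by 2.40, 0.51 and 0.22. The measure is not scaled, so it follows the size of the changes as well as their pattern over the groups.

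**Figure D4:**
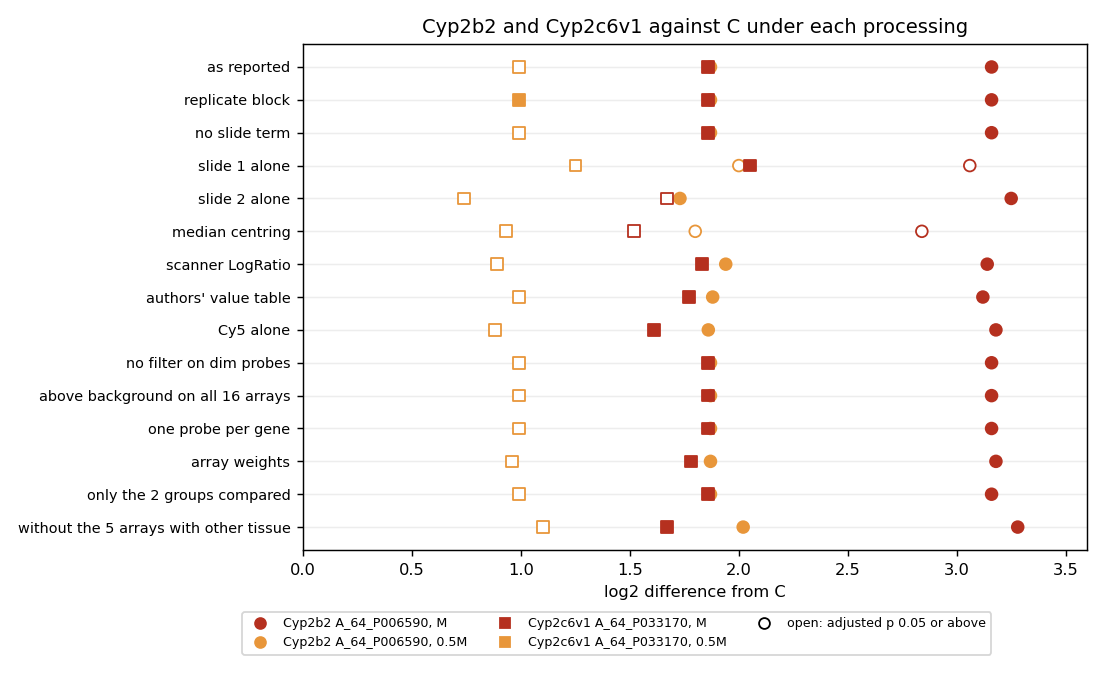
Log2 difference from C of Cyp2b2 (circles, A_64_P006590) and Cyp2c6v1 (squares) in M (red) and 0.5M (orange) under each processing alternative; open points did not pass. The M values stay between 2.84 and 3.28 for Cyp2b2 and between 1.52 and 2.05 for Cyp2c6v1 over 14 alternatives, of which 12 kept each call.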

How the data were processed

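Liver RNA was measured on 16 Agilent arrays with 2 colours. The deposited scan files, made with Agilent Feature Extraction 10.7.3.1 per the file headers, hold median signals and backgrounds as scanner intensity, a LogRatio on the log10 scale, and marks (unit other) for spots above background, saturated or uneven. The authors' deposited value table is on the log2 scale; against the scan files it ran in the same direction (r of 0.976 to 0.997 with its own array, at most 0.913 with another), and its column medians were near 0. Its exact normalization is not given in the sources used here.

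From the intensities, normexp correction (offset 50), loess within arrays with control spots at weight 0, and averaging of spots per probe gave log2 ratios in limma 3.58.1 (R 4.3.3, with version 1.17.8 of the data.table package). Spots marked uneven or outlying were left out. A probe was kept if its Cy5 signal exceeded background on 4 or more of the 16 arrays (14524 of 30367); 12 with missing values were dropped. Cy5 was above background for 7082 to 13824 probes per array on slide 1 and 13006 to 15686 on slide 2, and precision is set by the small number of arrays. limma (lmFit, eBayes) fitted all 16 arrays with a mean per group and a slide term (replicates 1 and 2 on slide 1, 3 and 4 on slide 2). P-values were Benjamini-Hochberg adjusted over 14512 probes within each of 6 comparisons, with a threshold of 0.05. The code was tested on simulated data. Unequal change of probes was tested by exact permutation of arrays.

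Symbols came from RefSeq accessions (18004 probes with a symbol, 12363 without), and promoters from RefSeq (GRCr8). Named were every member probe, listed or family genes past the threshold, the family probe with the smallest p, Nr1i3 and Nr1i2, and the 5 probes most like Cyp2b2 and Cyp2c6v1; the other Cyp2b and Cyp2c genes were added after their values were seen. The members, lists and the 5 arrays left out together were chosen with earlier results of these data known. Alternatives changed the blocking, slide, normalization, value source, filter, probe choice, array weights and arrays used. Adult, cross-fostered and combined-exposure groups of the study were not analysed here.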

Additional observations from a re-analysis of the deposited data

How the results depend on the processing

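The 4 arrays per group limit every value, and the main-fit intervals of Cyp2b3 against C include 0. Some alternatives in M against C went beyond these intervals, without passing. A_64_P018626 ran from -0.55 to 0.11 (interval -0.52 to 0.08). A_44_P205599 ran from -0.37 to 0.20 (interval -0.34 to 0.27). In M against C and M against AhR, all 3 called probes kept their direction under every alternative that was run, and their calls under all but median centring, slide 1 alone and, for Cyp2c6v1 against C, slide 2 alone, where it stood at 1.67 (adjusted p = 0.0902, limma). On slide 1 alone only Cyp2c6v1 passed in M against C, and Cyp2b2 stood at 3.06 (adjusted p = 0.0637, limma). The cause of these changes was not tested; each slide alone leaves 2 arrays per group.

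Numbers of probes past the threshold, with members in brackets, changed as follows. Median centring gave 1 (0) in M against C and 0 (0) in the other 5 comparisons. Slide 1 alone gave 4 (1) in M against C, 1 (0) in 0.5M against C and 0 (0) elsewhere. Slide 2 alone gave 10 in M against C, 15 in M against AhR, 1 member in M against 0.5M and 1 in 0.5M against AhR. The scanner LogRatio gave 26 in M against C, 25 in M against AhR and 0 (0) in 0.5M against AhR. Cy5 alone gave 25 in M against AhR and 1 (1) in 0.5M against AhR, and no filter gave 0 (0) there. Only the 2 groups compared gave 2 members in 0.5M against C, 2 probes in M against 0.5M and 23 in M against AhR. A stricter filter or one probe per gene gave 2 in M against 0.5M, and no slide term 1 member. Array weights gave 1 member in M against 0.5M and 5 probes in 0.5M against AhR. Without the 5 arrays with high muscle, pancreas or fat markers there were 32 in M against C, 23 in M against AhR and 5 in 0.5M against AhR. There were then 2 members in 0.5M against C and 1 in M against 0.5M. Higher calls were 72.5% of those in M against AhR, and 84.0% with Cy5 alone.

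Same-numbered arrays also share a slide. Their deviations from the group mean correlated at -0.217 to 0.453, with 10 of 16 arrays best with their own number. With the slide also taken out the correlations were -0.392 to 0.223, and the numbers were not treated as pairs in the main fit. With the replicate block, 2 members passed in 0.5M against C (Cyp2c6v1 at 0.99, adjusted p = 0.0244, limma), 9 (1) probes in M against 0.5M (Cyp2c6v1 at 0.86, adjusted p = 0.0366, limma) and 5 in 0.5M against AhR.

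Leaving out 1 array gave 27 to 63 probes in M against C, 2 to 7 (0 to 2 members) in M against 0.5M, 14 to 38 in M against AhR, 0 to 3 (0 to 2) in 0.5M against AhR, 1 to 2 members in 0.5M against C, and 5 to 8 unequal pairs of probes.

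Signs turned only for differences that never passed. Against C, on slide 1 alone, M on Cyp2b3 became 0.20 and 0.11, and AhR became -0.15 on A_44_P311324 and 0.03 on Cyp2c6v1; median centring gave -0.05 for AhR on A_44_P311324 and Cy5 alone 0.08 for 0.5M on A_44_P205599. For A_44_P205599, M against 0.5M became -0.25 on slide 2 alone and with median centring, -0.07 by LogRatio, -0.03 by the authors' table and array weights, -0.13 by Cy5 alone and -0.08 without the 5 arrays. M against AhR became -0.07, -0.19, -0.02, -0.03 and -0.12 on slide 2 alone, with median centring, LogRatio, Cy5 alone and without the 5 arrays, and 0.5M against AhR -0.07 on slide 1 and -0.03 without the 5. For A_64_P018626, M against 0.5M became 0.19 on slide 1 alone, and M against AhR -0.15, -0.20, -0.03 and -0.19 on slide 2, with median centring, LogRatio and without the 5. Leaving out 1 array gave, for A_44_P205599, -0.14 to 0.03, -0.15 to 0.02 and -0.23 to 0.01 for M, 0.5M and AhR against C, -0.08 to 0.09 for M against 0.5M, -0.04 to 0.19 for M against AhR and -0.07 to 0.17 for 0.5M against AhR. It gave -0.17 to 0.00 and -0.08 to 0.17 for A_64_P018626 in M against 0.5M and AhR, and -0.09 to 0.08 and -0.21 to 0.03 for A_44_P311324 and Cyp2c6v1 in AhR against C.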
